A study of Homo sapiens with 2 samples.

Results

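Circular RNAs (circRNAs) that arise from 5 genes of microtubule biology were examined in SW620 cells, an established human colorectal cancer line. The hosts were CAMSAP1, TBCD, CLASP1, CLASP2 and DYNC1H1, and a circRNA was taken as a member when its host field held exactly 1 of these names. This gave 11 of the 1485 circRNAs in the table, 5 from TBCD, 3 from CAMSAP1 and 1 from each of the others, all with a circBase identifier and no second host name. Of all 1485, 75.6% had such an identifier, and at least 1345 had a single host name. One library came from cells given Hedyotis diffusa-Sculellaria barbata (HD-SB), a combination of medicinal herbs, at 1 mg/mL for 24 h, and 1 library came from control SW620 cells whose handling the labels describe no further. RNase R, which digests linear RNA, was used on both. With 1 library of each kind no difference below has a replicate check, and none is a tested effect of HD-SB.

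Microtubules are polymers of alpha- and beta-tubulin with a slow minus end and a fast plus end. TBCD is a tubulin folding cofactor that helps to assemble and take apart the tubulin dimer. CAMSAP1 binds and protects free minus ends, the paralogs CLASP1 and CLASP2 stabilise microtubules at growing plus ends, and DYNC1H1 is the heavy chain of cytoplasmic dynein, the motor that walks to the minus end. A circRNA forms when the end of a downstream exon (the donor) is joined to the start of an upstream exon (the acceptor), and a sequencing read over that joint is a back-splice read.

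The table listed 11570 back-splice reads on 1475 circRNAs in HD-SB and 91 reads on 32 circRNAs in the control. The smallest listed count was 2 reads, which was taken as the listing minimum. Values are reads, shares of the listed reads of a library, or CPM (reads per 1000000 listed back-splice reads). Intervals are exact (Clopper-Pearson) at 95% and express the counting error of reads alone, with no spread between libraries. Copies made by amplification are not independent molecules, so the intervals can be too narrow for counts of molecules. As a check of the cell type, intestinal epithelium hosts gave 7 circRNAs and 73 HD-SB reads. They came from 4 of the 21 listed hosts, VIL1, EPCAM, EPHB2 and FUT8, and a FUT8 circRNA of 3 reads also carried other host names. Hosts that mark other cell types gave 0 circRNAs from 14 genes for fibroblasts and smooth muscle, 2 from 13 genes for leukocytes (13 reads, of which LCK had 9) and 1 from 10 genes for endothelium and neurons (4 reads). These counts are too low to check the label by the share of hosts seen.

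The positions in the table did not coincide with those of the GENCODE 29 annotation, so exons were assigned by distance and not by position. The span of each circRNA (end minus start plus 1) was compared with the distance from the start of any acceptor exon to the end of any donor exon within 1 transcript of its host. All 11 member spans equalled exactly 1 such distance to the base, and 0 of 11 did so when the span was made 1 base shorter or 1 base longer. Over the 1345 circRNAs with 1 host name in the annotation, 94.6% had a span that equalled such a distance. The match gives the exons at both joints, and the exons in between are those of the annotation, since the table does not show whether each was kept.

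All 11 circles lay wholly within the coding range of their transcript, with 2 to 6 exons. The share within the coding range over all matched circRNAs is not given here, so this is not read as a trait of the members. The back-splice is the sequence that a circle has and the linear RNA of its gene does not, so it is shown here. For CAMSAP1 and TBCD, the hosts with several circles, 20 bases of the donor exon are followed by 20 bases of the acceptor exon in capitals, read 5′ to 3′ from the annotated GENCODE 29 transcripts.
CAMSAP1 hsa_circ_0001900 (exon 3 to exon 2): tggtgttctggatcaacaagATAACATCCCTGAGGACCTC
CAMSAP1 hsa_circ_0006814 (exon 4 to exon 2): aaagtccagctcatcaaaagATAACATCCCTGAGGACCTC
CAMSAP1 hsa_circ_0089489 (exon 7 to exon 4): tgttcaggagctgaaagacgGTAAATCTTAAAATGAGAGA
TBCD hsa_circ_0005245 (exon 23 to exon 18): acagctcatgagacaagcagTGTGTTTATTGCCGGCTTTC
TBCD hsa_circ_0046573 (exon 23 to exon 19): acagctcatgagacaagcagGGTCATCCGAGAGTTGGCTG
TBCD hsa_circ_0046534 (exon 19 to exon 15): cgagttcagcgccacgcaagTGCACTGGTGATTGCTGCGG
The first 2 CAMSAP1 joints share their acceptor and differ in the donor, and the first 2 TBCD joints share their donor and differ in the acceptor.

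**Figure D1:**
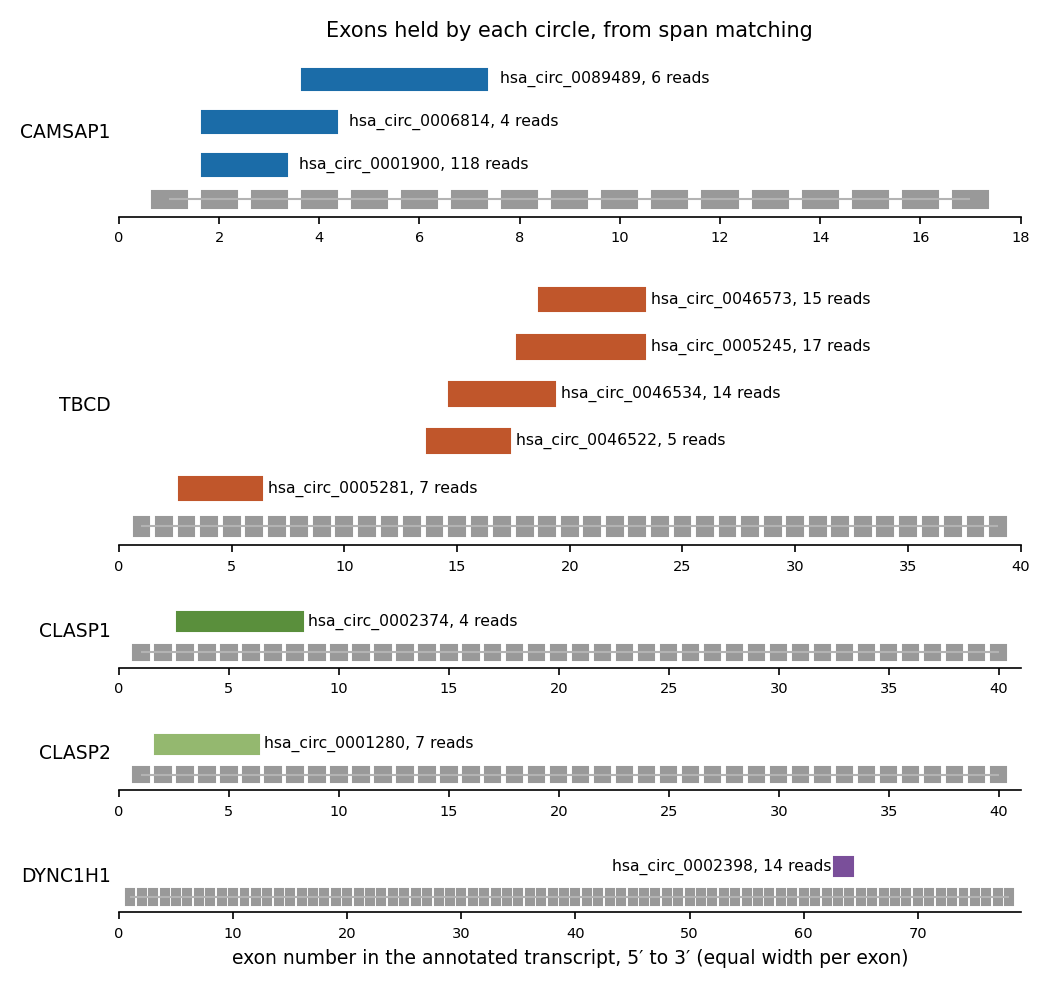
Exons held by each of the 11 circles, drawn on the exon numbers of the annotated transcript of each host (grey boxes, equal width per exon, 5′ to 3′), with HD-SB reads beside each bar. The CAMSAP1 circles lie between exons 2 and 7, and 4 of the 5 TBCD circles lie between exons 14 and 23.

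CAMSAP1 gave the most abundant member. The circle hsa_circ_0001900 (chromosome 9, 138773479 to 138774924, as deposited) joins exon 3 back to exon 2 of 17, with 263 and 162 nt, a spliced length of 425 nt in a span of 1446 bp. It had 2 reads (21978 CPM) in the control and 118 reads (10199 CPM) in HD-SB, where 5 circRNAs had more. Its share of listed reads was 2.20% in the control (0.267 to 7.71) and 1.02% in HD-SB (0.845 to 1.22). The control interval holds the HD-SB share, and 91 reads cannot show a difference of this size. In bulk RNA, more circles per cell and more cells that make them cannot be told apart. The control share was 2.15-fold that of HD-SB (0.258 to 7.96, conditional on the 120 reads of both libraries).

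Every circRNA listed in both libraries leaned the same way, since 22 of 22 (100%) had a share at least 2-fold lower in HD-SB, with a median of 24.6-fold. The smallest count that the control lists, 2 reads, is already 2.20% of that library. The counting interval left out an equal share for 20 of the 22 (90.9%), hsa_circ_0001900 not among them. These intervals do not allow for the listing minimum, which nearly fixes that outcome for a circRNA with few HD-SB reads, so nothing is read from this count or from the shared direction. By its ratio hsa_circ_0001900 was the nearest of the 22 to an equal share. At the listing minimum of 2 control reads, this order follows HD-SB reads alone. A circRNA not listed in the control has no ratio. By HD-SB reads hsa_circ_0001900 ranked 2 among the 22, so not all of the 5 circRNAs with more HD-SB reads were ranked. The rank is therefore not read as a trait of CAMSAP1. Nearest to hsa_circ_0001900 by the log2 ratio of HD-SB to control shares, measured over these 2 libraries, were RBM33 at -2.22, UBAP2 at -2.69 and RSRC1 at -2.90, against -1.11 for CAMSAP1. Its direction turned when libraries were scaled by the median ratio of these 22 circRNAs, which moved every log2 ratio by 4.62 and put CAMSAP1 at 3.51. Among the 9 circRNAs that had exactly 2 control reads, HD-SB reads ran from 3 to 118, with 32 as the next value below 118.

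**Figure D2:**
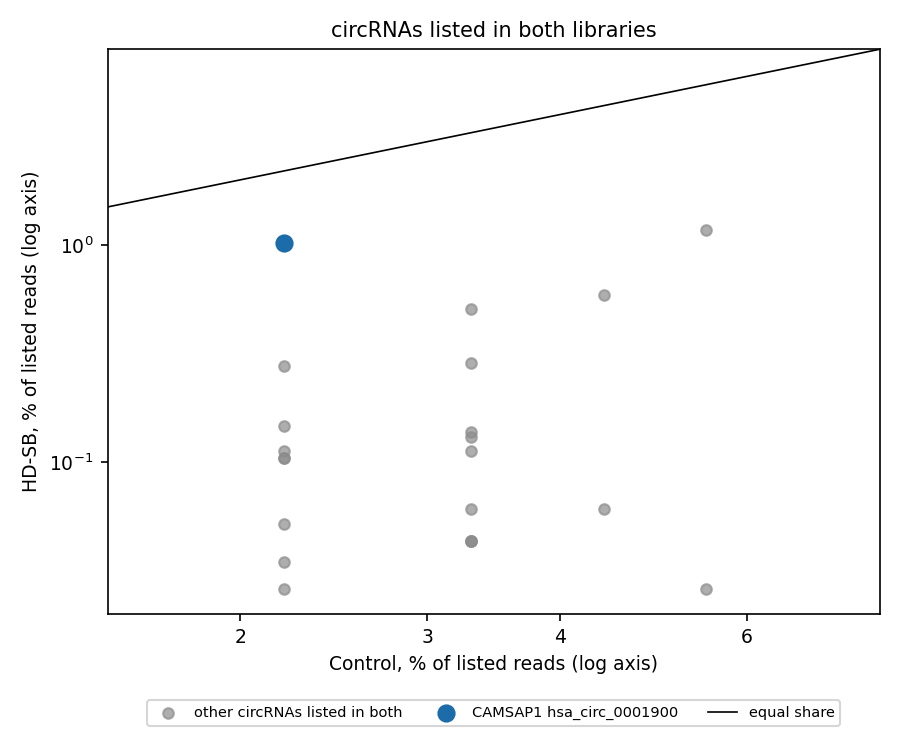
Shares of listed back-splice reads in the control (x) and HD-SB (y) libraries for the 22 circRNAs listed in both, on log axes, with the line of equal share; each point is 1 circRNA and some points coincide. CAMSAP1 hsa_circ_0001900, at 2.20% and 1.02%, is the nearest of the 22 to the line, which it crosses when libraries are scaled by the median ratio of the 22. CircRNAs not listed in the control have no ratio and are not drawn.

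The other CAMSAP1 circles were far less abundant. With 6 HD-SB reads, hsa_circ_0089489 (chromosome 9, 138741983 to 138758382) covers exons 4 to 7, and with 4 reads hsa_circ_0006814 (chromosome 9, 138758302 to 138774924) covers exons 2 to 4. Neither was listed in the control. Together they held 10 of the 128 CAMSAP1 reads in HD-SB, so that the exon 2 to 3 circle took 92.2% (86.1 to 96.2). The median share of the leading circRNA was 64.5% over the 200 hosts with at least 2 circRNAs in HD-SB, and 4 of these hosts had a higher leading share than CAMSAP1. Exons 2 and 3 were present in circles with 122 of the 128 reads, and exon 4 in circles with 10.

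The CAMSAP1 circles of 118 and of 4 reads have the same acceptor and differ by exon 4. That exon, of 81 nt, is the last exon of hsa_circ_0006814 and the first of hsa_circ_0089489, and it is the only sequence these share. It is shown for that reason, in the transcript ENST00000389532.8.
CAMSAP1 exon 4: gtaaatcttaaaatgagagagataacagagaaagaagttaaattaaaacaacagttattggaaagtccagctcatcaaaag

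TBCD gave 5 circles and 58 HD-SB reads, 0.501% of the library (0.381 to 0.648), and none was listed in the control. The counts were 17 reads for hsa_circ_0005245 (chromosome 17, 80858527 to 80869665, exons 18 to 23) and 15 for hsa_circ_0046573 (80861281 to 80869665, exons 19 to 23). There were 14 for hsa_circ_0046534 (80842021 to 80861354, exons 15 to 19), 7 for hsa_circ_0005281 (80721841 to 80730383, exons 3 to 6) and 5 for hsa_circ_0046522 (80828100 to 80851508, exons 14 to 17). All 5 had overlapping intervals, which together run from 0.0140% to 0.235% of HD-SB reads, so their order is not fixed at this depth. TBCD was 1 of 9 among 1069 hosts with a single name (0.842%) that gave at least 5 circRNAs in HD-SB, against 81.3% with 1. Because TBCD was chosen with its several circles known, this count only describes it. Its leading circle held 29.3% of its reads (18.1 to 42.7), while the leading share over the 9 hosts ran from 23.5% to 83.1% with a median of 37.5%.

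The TBCD circles crowd around exon 19. Circles that hold this exon of 74 nt had 46 of the 58 reads, 79.3% (66.6 to 88.8), against 53.4% (39.9 to 66.7) for exon 18 and 55.2% (41.5 to 68.3) for exons 20 to 23. Those intervals overlap, and the same reads count for several exons. Exon 19 is the acceptor exon of hsa_circ_0046573 and the donor exon of hsa_circ_0046534, circles with 15 and 14 reads that share no other exon. It is shown here, from the transcript ENST00000355528.8, because 1 exon serves both roles.
TBCD exon 19: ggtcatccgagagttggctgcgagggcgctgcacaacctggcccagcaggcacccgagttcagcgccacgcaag
No circle held exons 7 to 13, and hsa_circ_0005281, near the 5′ end of the gene, overlapped none of the others.

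An overlap of exactly 1 exon, with the donor of one circle and the acceptor of another on it, was thus seen in both hosts that gave several circles. Of 13 pairs of circles within CAMSAP1 and TBCD, 2 (15.4%) had it, 1 shared an acceptor, 1 shared a donor and 7 lay apart. Over all hosts, 20 of 380 such pairs (5.26%) overlapped by 1 exon, in 17 of 180 hosts. A shared acceptor was seen in 19.2% of these pairs, a shared donor in 17.6%, and 49.2% lay apart. With 2 pairs among the members this is a description and was not tested.

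CLASP1 and CLASP2 gave 1 circle each, and these began at matching exons. In HD-SB, hsa_circ_0002374 of CLASP1 (chromosome 2, 122260743 to 122287901) had 4 reads and hsa_circ_0001280 of CLASP2 (chromosome 3, 33725851 to 33738425) had 7. Neither was listed in the control, and with intervals of 0.00942% to 0.0885% and 0.0243% to 0.125% the levels did not differ beyond counting error. The CLASP1 circle covers exons 3 to 8 of 40 in ENST00000263710.8, and the CLASP2 circle covers exons 2 to 6 of 40 in ENST00000359576.9. The first 5 exons have the same lengths in both, namely 79, 104, 92, 76 and 98 nt. CLASP1 goes on for 1 more exon of 68 nt, whose counterpart in CLASP2 has 71 nt and lies outside the circle. Spliced lengths were 517 and 449 nt.

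Over those 5 exons, 279 of 449 bases (62.1%) were identical without gaps, from 45.6% in the acceptor exon to 68.5% in the third. The exon before the acceptor differed in length, at 480 and 406 nt. These are exon 2 of CLASP1 and exon 1 of CLASP2, the first of its transcript, so they are unlike in kind. Equal exon lengths also occur elsewhere in the genes, the longest run being 8 exons, from exon 25 to 32 of CLASP1 and from 26 to 33 of CLASP2. The acceptor exons are printed to show how far the paralogs differ where both circles begin, with the 43 differing bases in capitals.
CLASP1 exon 3: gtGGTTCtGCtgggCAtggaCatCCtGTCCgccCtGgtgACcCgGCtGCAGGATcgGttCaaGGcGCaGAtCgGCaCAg
CLASP2 exon 2: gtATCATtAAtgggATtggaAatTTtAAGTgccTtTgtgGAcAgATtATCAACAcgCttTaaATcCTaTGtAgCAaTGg

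**Figure D3:**
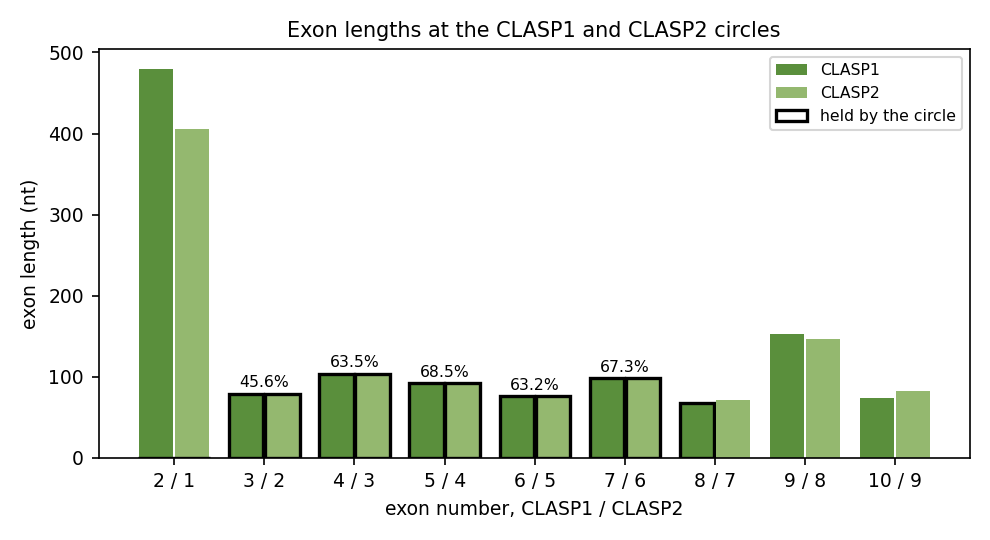
Exon lengths in nt of CLASP1 (dark) and CLASP2 (light) at the exons around their circles, with exons held by a circle outlined and the percent of identical bases above pairs of equal length. Lengths are equal over the first 5 exons of both circles and differ on either side, where the upstream CLASP2 exon is the first of its transcript.

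DYNC1H1 gave 1 short circle. It had 14 HD-SB reads (1210 CPM, 0.121%, 0.0662 to 0.203) and was not listed in the control. The circle hsa_circ_0002398 (chromosome 14, 102506573 to 102507010) joins exon 64 back to exon 63 of 78, with 175 and 76 nt. Its exons make up 57.3% of its span of 438 bp, against 1.41% to 29.4% in the other 10 members. It is the only member whose exon interval also overlaps another annotated gene, a pseudogene on the opposite strand, and whether counting used strand is not given in the sources used here.

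Ordered by reads over all circles of a host, HD-SB gave 128 for CAMSAP1, 58 for TBCD, 14 for DYNC1H1, 7 for CLASP2 and 4 for CLASP1. These are 60.7%, 27.5%, 6.64%, 3.32% and 1.90% of the 211 member reads. The intervals of CAMSAP1 (53.7 to 67.3) and TBCD (21.6 to 34.0) were apart from each other and from the rest, while those of DYNC1H1 (3.67 to 10.9), CLASP2 (1.34 to 6.72) and CLASP1 (0.519 to 4.78) overlapped. All members held 1.82% of HD-SB reads (1.59 to 2.08), and without hsa_circ_0001900 the remaining 10 held 0.804% (0.649 to 0.984). The median was 7 reads for a member and 5 for all HD-SB circRNAs.

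Listing in HD-SB alone does not separate the members from other circRNAs. It held for 10 of the 11, and for 97.8% of all circRNAs in the table. At their HD-SB shares these 10 would give 0.731 reads in total among 91, and singly from 0.0315 for CLASP1 to 0.134 for hsa_circ_0005245 of TBCD. If the listing minimum was the only filter, an unlisted circRNA had 0 or 1 control read. That allows a share of up to 5.97%, above every HD-SB share here. An interval that puts HD-SB above the control would have needed 471 HD-SB reads against 0 in the control and 711 against 1.

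**Figure D4:**
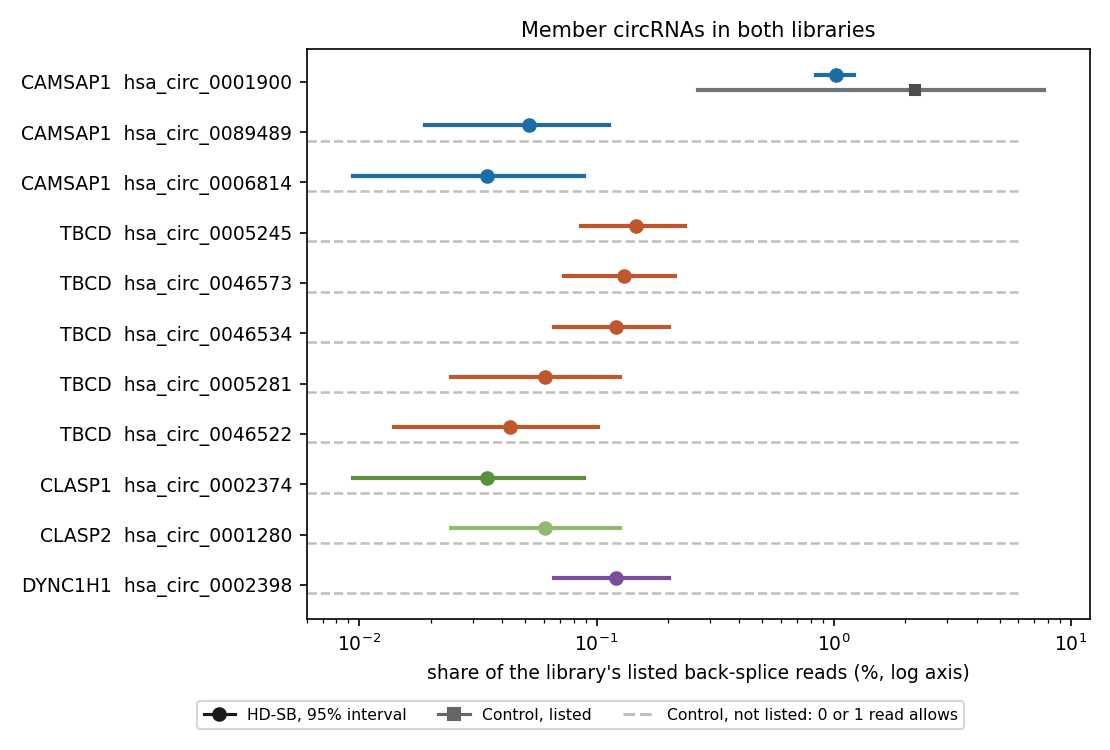
Share of listed back-splice reads, in percent on a log axis, for each member circRNA in HD-SB (circles) and the control (square where listed), with 95% counting intervals. Dashed lines run up to the share allowed if an unlisted circRNA had 0 or 1 control read. Only CAMSAP1 hsa_circ_0001900 was listed in the control, and every HD-SB share lies below the control limit of 5.97%, or for that circle within its control interval.

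Most members had spans above the median of the table. Spans ran from 438 bp (DYNC1H1) to 27159 bp (CLASP1), with a median of 12575 bp against 4076 bp for all HD-SB circRNAs, and 7 of 11 spanned at least 10000 bp, against 28.9% of all. Several circles of CAMSAP1 and of TBCD overlap, so these are not 11 independent spans. By reads the picture turns, since hsa_circ_0001900 spans 1446 bp and the 7 long circles held 57 of the 211 reads (27.0%). With introns left out, spliced lengths ran from 251 nt (DYNC1H1) to 517 nt (CLASP1) with a median of 403 nt, against 370 nt for 1254 HD-SB circRNAs with an exon match (quartiles 312 and 466).

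In all 11 members both introns next to the circle were longer than the median intron of the transcript, which held for 66.2% of the 1254. The CAMSAP1 circle of 118 reads lies between introns of 23921 and 15096 bp, in a transcript with a median of 1831.5 bp, and the circle that adds exon 4 has 3847 bp downstream. The longest was the 75375 bp intron upstream of the CLASP1 circle. In DYNC1H1 the flanking introns had 503 and 900 bp, short in absolute terms but above its median of 348 bp. The members share introns within a host, so these are not 11 independent cases. None of the 11 spliced lengths was a multiple of 3, against 37.4% of the 1254. Several circles within a host also share exons, so these lengths are not independent either.

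**Figure D5:**
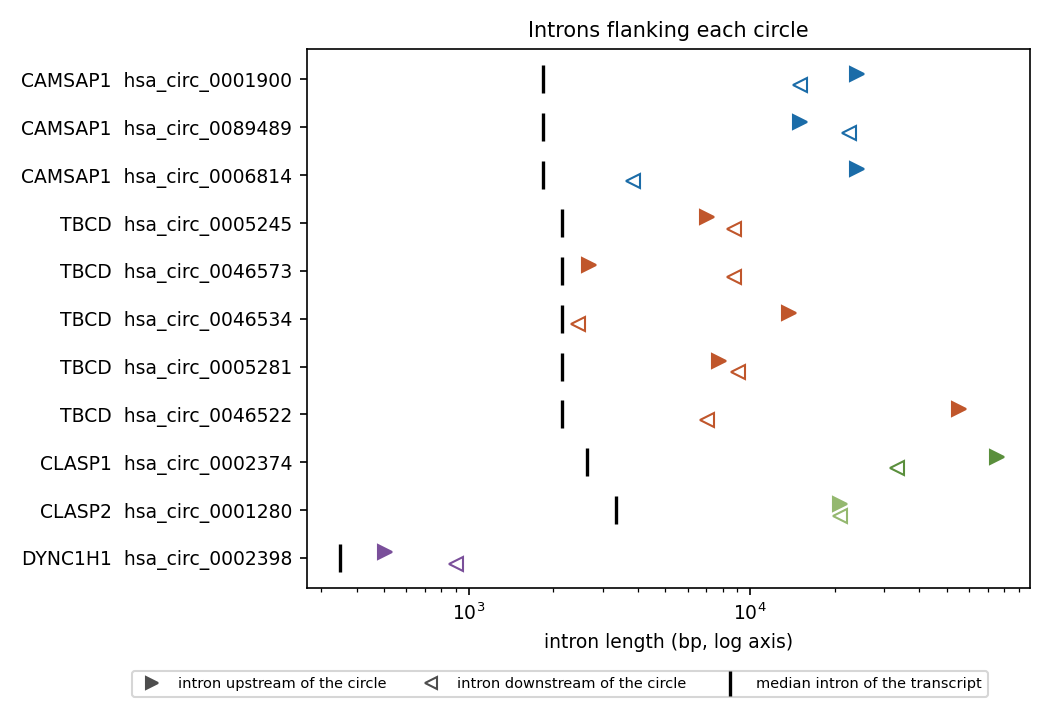
Lengths of the introns upstream (filled) and downstream (open) of each member circle, in bp on a log axis, with the median intron of the same transcript as a bar. Every flanking intron lies to the right of the bar, from 503 bp in DYNC1H1 to 75375 bp in CLASP1.

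The series is titled for a microRNA, hsa-miR-204-5p, which pairs with target RNA through its seed, here in capitals at bases 2 to 8, as given by RefSeq.
hsa-miR-204-5p: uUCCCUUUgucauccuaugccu
The letters that pair with this seed are AAAGGGA, searched on the strand of the circle and across the back-splice. They occurred in 2 of the 11 spliced members, and in 54 of the 1254 matched HD-SB circRNAs (4.31%). Both were CAMSAP1 circles, hsa_circ_0001900 and hsa_circ_0006814, which hold the same match at bases 189 to 195 of exon 2.
CAMSAP1 exon 2, match with its flanks: cctgtcccggAAAGGGAtctatgtgat
Of the 248 HD-SB circRNAs within 10% of the spliced length of hsa_circ_0001900, 3.23% held these letters. A match of letters is a description and does not show binding.

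Other microtubule genes were counted over 9 lists, without a comparison with genes at large, and the 5 hosts above were chosen among genes that gave circRNAs. Of 193 genes in these lists, 13 gave 20 circRNAs and 105 HD-SB reads, 0.908% of the library (0.743 to 1.10), with a median of 4 reads, and none was listed in the control. Tubulin genes gave 0 circRNAs from 16 genes, and tubulin modifying enzymes 0 from 21. Tubulin folding cofactors and relatives other than TBCD gave 1, from TBCEL with 5 reads. Minus end and nucleation genes gave 3 from 2 of 16 genes, led by pericentrin (PCNT, hsa_circ_0002903, 18 reads), a centrosome scaffold and the only circRNA of these lists with more reads than any of TBCD. Plus end tracking genes gave 6 from 3 of 20, led by CLIP2 (hsa_circ_0001717, 13 reads). Dynein and dynactin genes and their adaptors gave 3 from 2 of 33, with 7 reads for each of 2 circles of the adaptor HOOK3. Kinesin genes gave 2 from 2 of 38 with 2 reads each, from KLC1 and KIF4A. Structural microtubule-associated proteins gave 4 from 2 of 32, led by CCSER2 (hsa_circ_0006956, 6 reads), and severing genes 1, from the katanin subunit KATNA1 with 2 reads.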

How the data were processed

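Total RNA of SW620 cells went through removal of ribosomal RNA, RNase R digestion, fragmentation and amplification, per the labels' protocols. The submitters' processing notes name FastQC, HISAT2 2.1.0 and GRCh38, with no role for any of them. The circRNA caller and its filters were not given in the sources used here. The deposited values, TPM per the file headers, were treated as CPM, since every listed value was a whole multiple of 1 step per library (10989 CPM in the control, 86.4 CPM in HD-SB, within 0.0003 of a step) whatever the span. The value 0.001 was read as not listed and taken as 0 or 1 read, which assumes that no other filter removed a circRNA. Depth was 91 and 11570 listed reads. No test was made with 1 library of each kind.

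Exons came from GENCODE 29 (GRCh38) by exact span, never from the first exon as acceptor or the last as donor, using the best-ranked coding transcript that held both ends. Of 1264 circRNAs that matched 1 distance, 1264 lay on the annotated chromosome and 14 at the annotated positions, and 176 of 182 hosts with several matched circRNAs were displaced by 1 constant. Of 439 exon pairs drawn from the annotation of 1000 genes as a check, 418 matched 1 distance only, while finding the drawn pair again is built into the search. Positions are printed as deposited, with no build. As a set they are not GRCh38 positions, although the processing notes name GRCh38, and no sequence was read by position. Of the named circRNAs outside the members, those with the most HD-SB reads per list and those nearest to CAMSAP1 in log2 share ratio were taken. Members and lists were chosen with earlier results of these data known. The descriptions of exons, introns, pairs of circles and seed letters were added after the data were seen. Python 3.11.15, pandas 2.3.3 and SciPy 1.17.1 were used. Alternatives were read minimums, denominators, pseudocounts, scaling and circBase membership.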

Additional observations from a re-analysis of the deposited data

How the results depend on the processing

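Of 20 values under alternatives, 11 stayed close to the main one, taken as within its counting interval for shares and the CAMSAP1 ratio and within 1.5 times for counts and the median span. The CAMSAP1 log2 ratio of -1.11 turned to 3.51 under the median ratio of circRNAs listed in both libraries, which is centred on those circRNAs by construction. The member share of HD-SB reads, 1.82%, became 0.925% without the 10 most abundant circRNAs, since hsa_circ_0001900 is among these, 2.14% at a minimum of 5 reads and 2.18% for circBase entries alone, through smaller denominators, and 0.746% with each circRNA counted once. Weighted by reads, the median span of 12575 bp became 1446 bp, that of hsa_circ_0001900. With each circRNA counted once, TBCD made up 45.5% of the members in place of 27.5%. The exon matches, an analysis chosen after the data were seen, were 11 in the basic transcript set and with 1 transcript per host, and 0 with spans 1 base shorter and 0 with spans 1 base longer. No paired analysis was possible because there was a single library of each kind. The 91 control reads limit every comparison between the libraries.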
